A study of Mus musculus with 7 samples.

Results

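The genes of DNA replication and S phase entry were followed across mouse basal cell carcinoma, newborn epidermis and the PDKC1 carcinoma cell line. The set held 44 genes, and a probe set counted as a member where the platform annotation assigned it to exactly 1 of them. The arrays measured 43 of the 44 genes with 93 probe sets, out of 18193 genes in all. Chaf1a was not analysed here. The 43 genes had 1 to 5 probe sets each, and the probe set with the highest mean over the arrays stood for its gene unless stated otherwise.

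Expression was measured on 7 single-channel Affymetrix arrays. Dissected basal cell carcinoma, a hair follicle and epidermis tumour driven by Hedgehog signalling, gave 2 arrays. Normal epidermis of newborn (P0) mice gave 2 arrays. PDKC1, a mouse line derived from such a carcinoma, gave 1 array each at 0 h, 6 h and 10 h of cyclopamine, a plant alkaloid that inhibits the Hedgehog transducer Smoothened. The sources used here do not give the genotype or strain of the mice, the age of those with tumours, or the dose and vehicle of cyclopamine. The labels do not state whether replicate arrays of a tissue represent different mice. Their spread, which is what each p-value weighs a difference against, may therefore be technical.

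Replication starts when the origin recognition complex, with CDC6 and CDT1, loads the MCM helicase onto DNA in G1. At S phase the DBF4-dependent kinase CDC7 and the cyclin E kinase activate that helicase together with CDC45 and the GINS complex. DNA polymerases then copy both strands with the PCNA clamp, and most of these genes are transcribed under E2F factors before and during S phase. In skin, the proliferating basal layer and the hair follicle matrix hold most S phase cells, and the layers above the basal layer have left the cell cycle.

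The promoters of the members that differed most between tumour and epidermis are shown because E2F binding motifs of this kind of gene lie close to the start site. Each stretch holds 250 bases before and 30 after the RefSeq start (GRCm38.p6), 5′ to 3′ on the gene's strand, and capitals mark matches on either strand to the E2F-like motifs TTTCGCG or else TTTGGCG or else TTTCCCG, or to CCAAT. The first 4 genes are the called members with the largest differences, and Mcm6 was added after its matches were seen. Tyms lies at chr5:30073596-30073875 on the minus strand, E2f2 at chr4:136172024-136172303 on the plus strand, and Pcna at chr2:132253151-132253430 on the minus strand. Cdc6 lies at chr11:98907901-98908180 on the plus strand and Mcm6 at chr1:128359676-128359955 on the minus strand.
Tyms: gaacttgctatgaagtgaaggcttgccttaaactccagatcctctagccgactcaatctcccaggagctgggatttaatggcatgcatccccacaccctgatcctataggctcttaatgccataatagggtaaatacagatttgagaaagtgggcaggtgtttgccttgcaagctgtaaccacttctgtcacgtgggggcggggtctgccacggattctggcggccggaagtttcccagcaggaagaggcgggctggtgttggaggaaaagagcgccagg
E2f2: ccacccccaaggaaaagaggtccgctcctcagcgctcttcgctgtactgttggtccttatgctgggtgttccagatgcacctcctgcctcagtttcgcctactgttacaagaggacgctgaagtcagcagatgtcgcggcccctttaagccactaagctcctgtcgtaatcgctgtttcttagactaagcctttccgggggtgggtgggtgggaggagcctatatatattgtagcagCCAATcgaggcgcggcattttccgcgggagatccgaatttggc
Pcna: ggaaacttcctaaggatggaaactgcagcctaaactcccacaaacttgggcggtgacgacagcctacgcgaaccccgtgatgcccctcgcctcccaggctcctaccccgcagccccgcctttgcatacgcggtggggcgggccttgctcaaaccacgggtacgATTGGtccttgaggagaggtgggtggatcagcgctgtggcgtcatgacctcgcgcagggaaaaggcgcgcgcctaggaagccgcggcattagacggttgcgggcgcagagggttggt
Cdc6: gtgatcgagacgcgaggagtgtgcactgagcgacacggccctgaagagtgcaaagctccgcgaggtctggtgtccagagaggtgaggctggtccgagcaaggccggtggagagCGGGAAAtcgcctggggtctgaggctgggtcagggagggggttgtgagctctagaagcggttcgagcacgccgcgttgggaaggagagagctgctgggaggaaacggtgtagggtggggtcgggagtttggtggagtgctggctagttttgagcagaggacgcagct
Mcm6: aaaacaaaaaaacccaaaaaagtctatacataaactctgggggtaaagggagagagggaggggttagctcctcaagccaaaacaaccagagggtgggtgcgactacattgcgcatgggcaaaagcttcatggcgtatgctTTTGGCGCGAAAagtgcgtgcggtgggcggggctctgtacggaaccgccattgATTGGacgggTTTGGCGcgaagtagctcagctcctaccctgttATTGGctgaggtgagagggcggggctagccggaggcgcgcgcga

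Mcm6 carried 3 E2F-like matches, of which TTTGGCG and TTTCGCG overlap by 2 bases on opposite strands, and 2 CCAAT matches. Cdc6 carried 1 E2F-like match, Pcna and E2f2 carried 1 CCAAT match each, and the Tyms stretch carried none of the motifs. E2f2 has 2 promoter windows and counts among the genes with TTTGGCG below, although the printed stretch holds no complete match. Of 35 members with a promoter window of 300 bases, 15 held at least 1 E2F-like motif (42.9%), against 5.58% of all 32851 windows and 6.38% of all genes with a window. TTTCGCG was in 7 of the 35 members (20.0%, against 0.969% of all genes with a window) and TTTGGCG in 9 (25.7%, against 1.77%). TTTCCCG was in 6 (17.1%, against 3.92%) and CCAAT in 19 (54.3%, against 41.1%). A match is a description of these letters, and a window without one says nothing about the factor.

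The tissue arrays carried different cells and RNA of different quality. Of 8 fibroblast markers 7 were higher in tumour, with summed intensities of 65766 and 77840 in tumour and 14742 and 12037 in epidermis. Of 6 suprabasal keratinocyte markers 5 were lower, with sums of 65095 and 39332 in tumour and 192740 and 192840 in epidermis. Basal keratinocyte markers summed to 79711 and 59339 in tumour and 74368 and 90924 in epidermis, and 1 of 6 was lower. None of the markers on these 3 lists was under an intensity of 16 on both epidermis arrays. Skeletal muscle markers summed to 11051 and 2761.7 in tumour and 437 and 385 in epidermis, with 2 of 5 higher and 0 lower. The muscle markers Myh1 and Tnnt3 were under 16 on both epidermis arrays. Of 5 mast cell markers 4 were higher and 0 lower, and of 5 macrophage markers 0 were higher and 1 lower. In PDKC1 the basal markers summed to 94089 to 98173 and the fibroblast markers to 578 to 746. The ratio of 3′ to 5′ signal of the Actb control probe sets was 11.3 and 93.1 in tumour and 3.98 and 2.84 in epidermis, while PDKC1 had 1.15 to 1.21. The part of cell composition and RNA quality in the results below was not tested, and in bulk tissue fewer cells of a type and less RNA per cell cannot be told apart. The epidermis arrays were all of newborn mice, so carcinoma and age cannot be told apart either.

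The comparison of tumour with epidermis asked whether the carcinoma carries more or less replication gene RNA than newborn epidermis does. Most did not pass the test, and those that did were more often lower than higher. Of 43 members 8 were lower in tumour and 3 higher at an adjusted p under 0.05 (limma, Benjamini-Hochberg over all 18193 genes). The lower members were 18.6%, against 12.5% of all genes, and the higher ones 6.98%, against 16.6%. In either direction 11 of the 43 were called (25.6%), against 29.0% of all genes. The lower members were Cdc6, E2f2, Gins4, Mcm3, Mcm6, Pcna, Rfc4 and Tk1, and the higher ones were Cdc7, Pold1 and Tyms. On all 11 the tumour and epidermis arrays did not overlap. Both tumours lay below both epidermis arrays for 18 of the 43 members, against 29.8% of all genes, and above both for 5, against 35.8%. The median log2 difference, tumour minus epidermis, was -0.28 for the members and 0.09 for all genes.

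**Figure D1:**
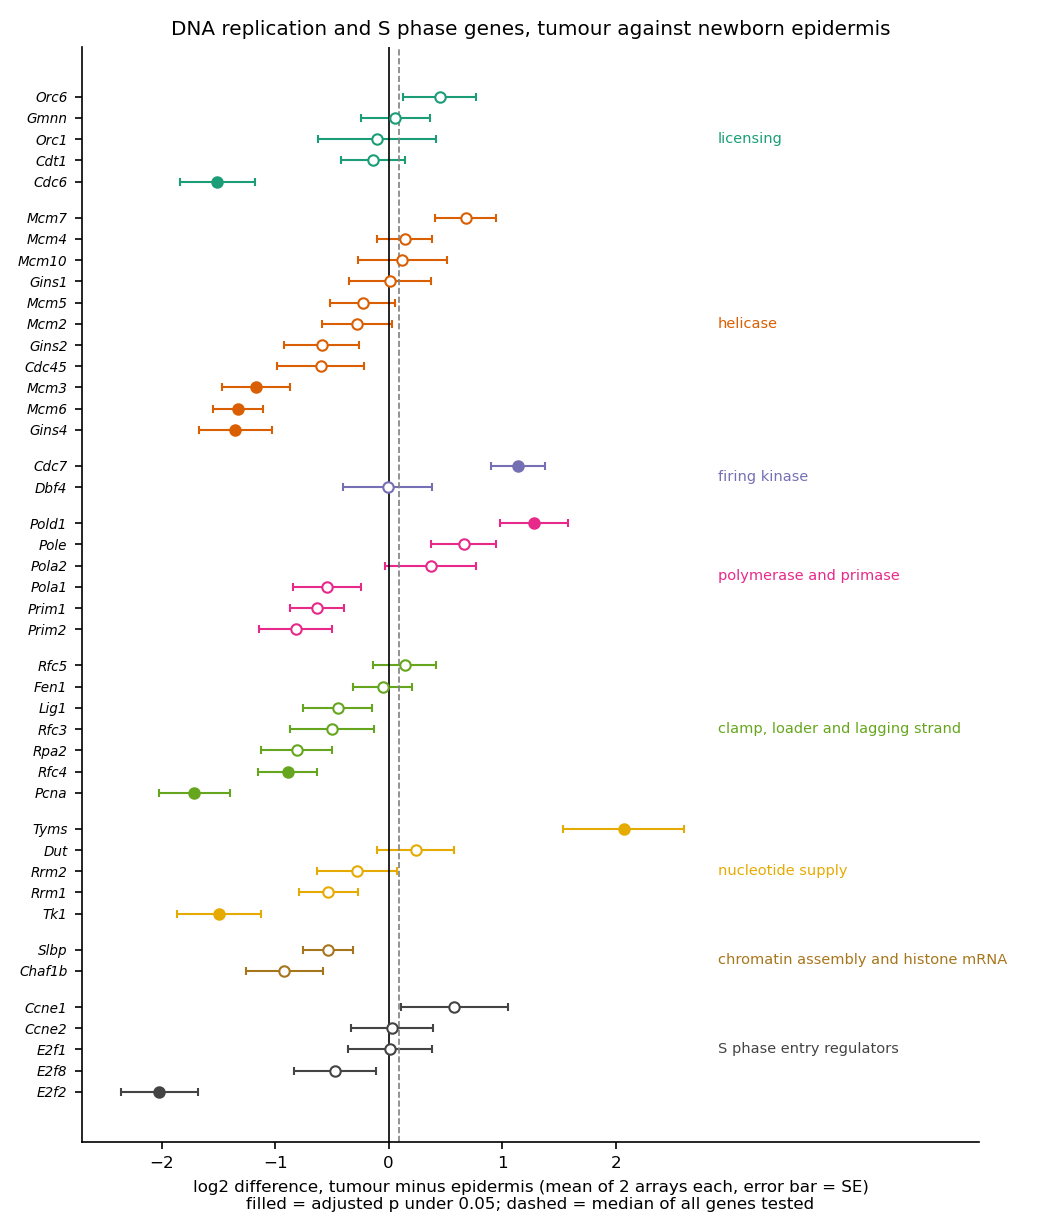
Log2 difference, tumour minus epidermis, of each measured member by role (x axis, log2 of intensity + 16), with SE bars from the fit on 2 arrays per tissue. Filled points passed the test, and the dashed line marks the median of all genes at 0.09. Filled points lie left of 0 for 8 members and right of it for Cdc7, Pold1 and Tyms.

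These calls depended on the number of epidermis arrays and on scaling. With either epidermis array left out, 0 of the 43 members were called by limma, while all 11 kept their direction. The members' median difference was -0.45 without epidermis array 1 and -0.15 without array 2. Of all genes 4.62% were called higher and 2.95% lower without array 1, and 5.30% and 3.40% without array 2. The epidermis arrays also differed from each other: array 2 was above array 1 for 35 of 43 members, against 52.0% of all genes, by a median of 0.41 for the members and 0.02 for all genes. Tumour 2 was above tumour 1 for 28 of 43 members, against 48.2% of all genes, by a median of 0.25. Without tumour 1 the members' median difference was 0.00 with 7 higher and 10 lower, against 19.5% and 18.4% of all genes. Without tumour 2 it was -0.52 with 2 higher and 10 lower, against 17.4% and 14.2%. Centring each array on its median moved the median of all genes to -0.43 and that of the members to -0.80, with 0 members higher and 17 lower against 9.54% and 23.6% of all genes. Relative to the median of all genes, the members stood at -0.37 with the values as deposited and with quantile normalization, and centring cannot change this value. It was -0.12 without tumour 1, -0.58 without tumour 2, -0.52 without epidermis array 1 and -0.24 without epidermis array 2.

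The licensing genes, whose products load the helicase, included 1 called member of 5. Cdc6, the loading ATPase, had intensities of 120.7 and 133.4 in tumour, against 413.5 and 370.6 in epidermis. Both tumours lay well under both epidermis arrays, and Cdc6 stood at -1.51 ± 0.33 log2 units in tumour relative to epidermis (SE from the fit, with 2 arrays in each tissue, adjusted p = 0.0157). Its adjusted p was 0.160 without epidermis array 1 and 0.125 without array 2. Cdt1, the partner of CDC6 in loading, had 1887.6 and 3077.3 in tumour and 2452.8 and 2866.3 in epidermis, and the tumour values enclosed the epidermis values (-0.14 ± 0.28, adjusted p = 0.766). Orc6, a subunit of the origin recognition complex, had 701.9 and 1296.4 in tumour and 707.7 and 679.8 in epidermis (0.45 ± 0.32, adjusted p = 0.355). Tumour 2 was the high array, and Orc6 was called without tumour 1 (0.89, adjusted p = 0.00905). Orc1, the largest subunit of that complex, differed by -0.10 ± 0.52 and Gmnn, the geminin gene whose product blocks CDT1 after licensing, by 0.06 ± 0.30.

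Among 11 helicase genes 3 were lower and 0 higher. Mcm6, a subunit of the MCM ring, had 969.2 and 838.1 in tumour, against 2109.1 and 2496.7 in epidermis (-1.33 ± 0.22, adjusted p = 0.00563). Mcm3, another ring subunit, had 415.2 and 380.1 in tumour and 730.2 and 1148 in epidermis (-1.17 ± 0.30, adjusted p = 0.0263). Both genes were lower on each tumour array than on each epidermis array. Gins4, a subunit of the GINS complex that activates the ring, had 485.5 and 288.8 in tumour and 871.4 and 1098.6 in epidermis (-1.35 ± 0.32, adjusted p = 0.0212). Without epidermis array 1 the adjusted p was 0.0754 for Mcm6, 0.0887 for Mcm3 and 0.119 for Gins4, and without array 2 it was 0.110, 0.280 and 0.197 in the same order. With no variance trend in the fit, Mcm3 (0.0650) and Gins4 (0.0567) were not called. With the mean of probe sets, Mcm3 (adjusted p = 0.0521) and Mcm6 (-0.07, adjusted p = 0.890) were not called, and Mcm2 was (-1.03, adjusted p = 0.0266). The other ring subunits were not called, at -0.28 ± 0.31 for Mcm2, 0.14 ± 0.24 for Mcm4, -0.23 ± 0.29 for Mcm5 and 0.68 ± 0.27 for Mcm7. Mcm7 was higher on both tumours, at 7090.1 and 10190.3 against 4585.8 and 6115 in epidermis (adjusted p = 0.103), and it was called without tumour 1 (0.94, adjusted p = 0.00765) and with quantile normalization (1.02, adjusted p = 0.0287). The remaining genes Mcm10, Cdc45, Gins1 and Gins2, which act in helicase activation, differed by 0.12, -0.60, 0.01 and -0.59, and Gins2 was called with centring (-1.11, adjusted p = 0.0351).

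The kinase gene Cdc7, whose product phosphorylates the loaded helicase, was higher in tumour. Its intensities were 966.6 and 1078.9 in tumour and 424.6 and 487.5 in epidermis, with no overlap (1.14 ± 0.24, adjusted p = 0.0138). The call was lost without epidermis array 1 (adjusted p = 0.169) or 2 (0.118), with centring (0.0894) and with the mean of its probe sets (0.0501). Dbf4, the regulatory subunit of that kinase, had 400.2 and 847.6 in tumour and 508.9 and 679.6 in epidermis, where the tumour values enclosed the epidermis values (-0.01 ± 0.39, adjusted p = 0.986).

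Of 6 polymerase and primase genes 1 was higher. Pold1, the catalytic subunit of polymerase delta, had 821.1 and 1232.9 in tumour and 350.9 and 469.9 in epidermis (1.28 ± 0.30, adjusted p = 0.0211). Its adjusted p was 0.193 without epidermis array 1, 0.0993 without array 2, 0.0910 with centring and 0.0572 with no variance trend. Its other probe set, at 426.1 and 285.8 in tumour and 264 and 499.3 in epidermis, differed by -0.06 ± 0.39, and with the mean of its probe sets the adjusted p was 0.156. Pole, the catalytic subunit of polymerase epsilon, had 493.9 and 655.6 in tumour, against 391.2 and 318.7 in epidermis (0.66 ± 0.29, adjusted p = 0.137), and was called without tumour 1 (0.86, adjusted p = 0.0414). Prim2, the large primase subunit, had 211.1 and 187.2 in tumour, against 326.8 and 401.9 in epidermis (-0.82 ± 0.32, adjusted p = 0.102). Neither gene overlapped between the tissues on these sets, and Prim2 was called with quantile normalization (-1.27, adjusted p = 0.0324) and with centring (-1.33, adjusted p = 0.0169). Of the other probe sets of Prim2, the brighter one went the other way. It had 284.1 and 370.2 in tumour, against 112.2 and 192.5 in epidermis (1.06 ± 0.39). With the mean of its probe sets Prim2 differed by -0.13. The small primase subunit gene Prim1 differed by -0.63 ± 0.24 (adjusted p = 0.0968; 0.0318 without tumour 1 and 0.00953 with centring), and the polymerase alpha genes Pola1 and Pola2 by -0.54 and 0.37. With centring Pola1 was called (-1.06, adjusted p = 0.0342). The other probe set of Prim1 was higher on both tumours, at 1254.5 and 1956.1 against 1059.9 and 1174.3 in epidermis (0.48 ± 0.27). The mean of the Prim1 probe sets differed by -0.07.

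Of 7 genes of the clamp, its loader and the lagging strand 2 were lower. Pcna, the sliding clamp that holds polymerases on DNA, had 3358.3 and 2023.7 in tumour, against 7169.9 and 10294.5 in epidermis. Both tumours lay far under both epidermis arrays, with a log2 difference of -1.71 ± 0.31 (adjusted p = 0.00812; 0.0501 without epidermis array 1 and 0.0956 without array 2). Rfc4, a subunit of the clamp loader, had 337.2 and 325.8 in tumour and 591.2 and 669.5 in epidermis (-0.89 ± 0.26, adjusted p = 0.0432). That call was lost with the replicate number as a block (0.0745), without epidermis array 1 (0.234) or 2 (0.324), with no variance trend (0.0739) and with the mean of its probe sets (-0.27, adjusted p = 0.411). Rpa2, a subunit of the protein that coats single-stranded DNA, had 489.7 and 349.9 in tumour and 609.7 and 898.1 in epidermis, without overlap (-0.81 ± 0.31, adjusted p = 0.0962). It was called without tumour 1 (-1.05, adjusted p = 0.0238), with centring (-1.33, adjusted p = 0.0136) and with quantile normalization (adjusted p = 0.0484). The loader genes Rfc3 and Rfc5 differed by -0.50 and 0.14, the ligase gene Lig1 by -0.45 and the flap endonuclease gene Fen1 by -0.05, and with centring Lig1 was called (-0.97, adjusted p = 0.0368). Fen1 was called with the mean of its probe sets (-0.73, adjusted p = 0.0429).

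Of 5 genes of nucleotide supply 1 was lower and 1 higher. Tk1, which salvages thymidine, had 227.8 and 155.6 in tumour, against 438.6 and 709.9 in epidermis (-1.49 ± 0.37, adjusted p = 0.0244; 0.0871 without epidermis array 1 and 0.233 without array 2). Tyms, which makes thymidylate, had 124.5 and 166.2 in tumour, against 9.9 and 39.9 in epidermis (2.07 ± 0.53, adjusted p = 0.0283). Tk1 was thus low and Tyms high on both tumours. All 4 probe sets of Tyms were dim, at no more than 166.2 on any array, 1 epidermis value of the called set lay under the pseudocount of 16, and the other probe sets differed by -0.31 to 0.43. The Tyms call was lost without tumour 2 (adjusted p = 0.0718), without epidermis array 1 (0.176) or 2 (0.0514), with quantile normalization (0.0582), with centring (0.0579), with the mean of its probe sets (0.347) and where low genes were left out. The ribonucleotide reductase genes Rrm1 and Rrm2 differed by -0.53 ± 0.26 and -0.28 ± 0.35, and Dut, which removes dUTP, by 0.24. Rrm1 had 965 and 1015.3 in tumour and 1162.1 and 1769.6 in epidermis, and was called with centring (-1.04, adjusted p = 0.0181), while Rrm2 was called without tumour 2 (-0.83, adjusted p = 0.00606) and with the mean of its probe sets (-1.68, adjusted p = 0.00411).

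Chromatin assembly and S phase entry genes gave 1 call. E2f2, an activating member of the E2F family, had 133.7 and 213 in tumour, against 835.5 and 642 in epidermis, so that both tumours lay far below (-2.02 ± 0.34, adjusted p = 0.00626; 0.0957 without epidermis array 1 and 0.0569 without array 2). Its other probe set had 113.3 and 177.8 in tumour and 179.2 and 193.6 in epidermis (-0.35 ± 0.39, adjusted p = 0.569 over all probe sets), and the mean of both gave -1.18 (adjusted p = 0.0307). Ccne1, a cyclin that activates CDK2, had 353.8 and 906.3 in tumour and 305.7 and 456.2 in epidermis (0.58 ± 0.47, adjusted p = 0.406), and was called without tumour 1 (1.24, adjusted p = 0.0141). E2f8, a repressive family member, had 782.7 and 1526.3 in tumour and 1278.5 and 1814.2 in epidermis (-0.47 ± 0.36, adjusted p = 0.379), and was called without tumour 2 (-0.95, adjusted p = 0.0204). The groups overlapped for both genes, and E2f1 and Ccne2 differed by 0.01 and 0.03. Chaf1b, a subunit of the assembly factor that deposits histones behind the fork, had 300.9 and 289.5 in tumour, against 431 and 764.4 in epidermis (-0.92 ± 0.34, adjusted p = 0.0890). Slbp, whose product binds histone mRNA, had 989.2 and 1103 in tumour and 1365.6 and 1687 in epidermis (-0.53 ± 0.22, adjusted p = 0.125). Both were lower on each tumour and both were called with centring (adjusted p = 0.0143 and 0.0112), and Chaf1b also with quantile normalization (0.0386).

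**Figure D2:**
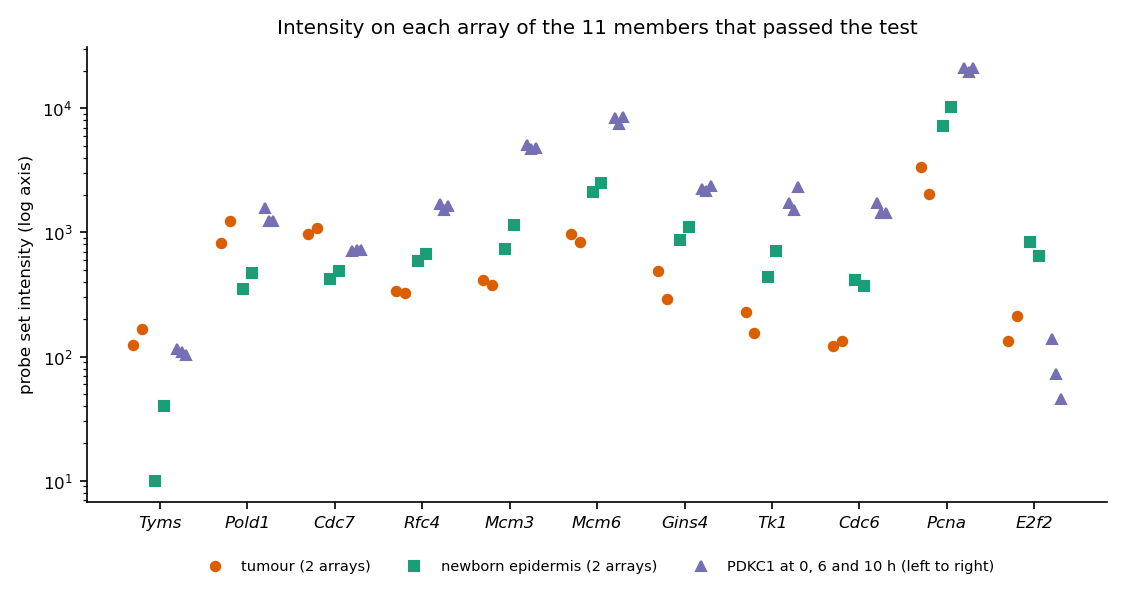
Intensity on each array (log axis) of the 11 members that passed the test, with tumour left of epidermis and PDKC1 at 0, 6 and 10 h to the right. Tumour and epidermis points do not overlap for any of the 11, which adds nothing to the test. PDKC1 lies above both tissues for 8 of them but not for Tyms, Cdc7 and E2f2.

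Probe sets of the same gene gave different answers. In the names of these arrays a plain at probe set matches 1 transcript, an a_at set several transcripts of 1 gene, an s_at set transcripts of more than 1 gene, and an x_at set holds probes that may also match other transcripts. Of 22 members with more than 1 probe set at a mean tissue intensity of at least 100, 11 had differences of opposite sign, against 39.1% of 4978 such genes, and 17 spread over at least 1 log2 unit (77.3%, against 57.6%). Rrm2, the small subunit of ribonucleotide reductase, shows this. Its x_at set had 1720.5 and 3658.5 in tumour and 2951.7 and 3174.8 in epidermis, a difference of -0.28. The other probe sets of Rrm2 had 116.3 and 108.8 in tumour against 732.3 and 987.6 in epidermis (-2.75 ± 0.31, adjusted p = 0.00147 over all probe sets), and 374.4 and 327.9 against 1244.9 and 1727 (-2.02 ± 0.26, adjusted p = 0.00249). For Mcm7 the brightest set differed by 0.68, while its a_at set had 709.6 and 358.8 in tumour and 1160 and 1907.1 in epidermis (-1.53 ± 0.39, adjusted p = 0.0269). The plain sets of Mcm2, Mcm4 and Mcm5 differed by -1.77 ± 0.27 (adjusted p = 0.00429), -1.33 ± 0.31 (0.0206) and -1.88 ± 0.44 (0.0207), although these genes were not called on their brightest sets.

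**Figure D3:**
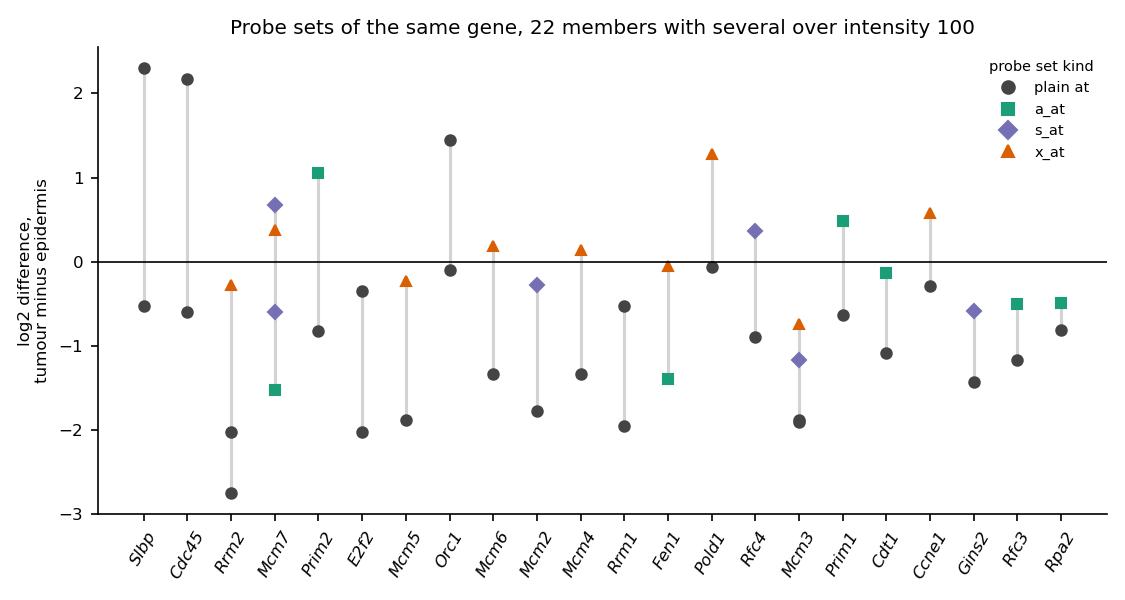
Log2 difference, tumour minus epidermis, of every probe set with a mean tissue intensity of at least 100, for the 22 members that have several. Marker shape gives the kind of probe set. The x_at sets (triangles) lie above the median of the gene's other sets in all 9 members that have both, a count made after the values were seen and not made over all genes.

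With every probe set tested, 18 of 93 member probe sets were lower (19.4%, against 10.7% of 34945) and 6 higher (6.45%, against 16.6%). Of the members not called on their brightest set, 8 had another set that was lower: Cdt1, Fen1, Mcm2, Mcm4, Mcm5, Mcm7, Rrm1 and Rrm2. Probe sets called higher included second sets of Cdc45 (2.17 ± 0.57, adjusted p = 0.0310), Rrm1 (1.48 ± 0.41, 0.0374) and Slbp (2.30 ± 0.59, 0.0276), each of which had another set below 0. These sets were dim in epidermis. Cdc45 had 206.1 and 200.5 in tumour against 13.9 and 63.5, Rrm1 had 40.6 and 41.8 against 6.6 and 2.7, and Slbp had 249.5 and 630.5 against 40 and 110.8. Both epidermis values of Rrm1 and the lower one of Cdc45 lay under the pseudocount of 16. Among the members, the difference between the tumour arrays went with the kind of probe set. Counted after the values were seen, and over probe sets with a mean tissue intensity of at least 100, the x_at difference was above the median of the other sets in 9 of 9 members, and its tumour 2 minus tumour 1 difference was above that of every other set in 9 of 9. Neither count was made over all genes, so whether it is particular to the members is not known. Over member probe sets of at least 100, tumour 2 minus tumour 1 had a median of 0.60 for 9 x_at and -0.08 for 41 plain sets, and over all genes it was 0.07 for 1330 and -0.06 for 14266. The Actb ratio was 11.3 in tumour 1 and 93.1 in tumour 2, the Gapdh ratio was 10.6 in tumour 1 and 15.4 in tumour 2, and the part of RNA quality in these differences was not tested.

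The other genes of replication, 45 measured of 46 listed, had 8 higher (17.8%) and 2 lower (4.44%), against 16.6% and 12.5% of all genes, with a median of 0.21. Mcmbp, which binds MCM proteins, had 2445.8 and 3456.1 in tumour and 717.3 and 767.7 in epidermis (1.95, adjusted p = 0.00222). Rnaseh2a, the catalytic subunit of an enzyme that removes ribonucleotides from DNA, had 499.8 and 360 in tumour and 1162.6 and 1523.7 in epidermis (-1.61, adjusted p = 0.00662). Dna2, a nuclease and helicase of the lagging strand, differed by 1.5 (adjusted p = 0.0243) and Wdhd1, which links polymerase alpha to the helicase, by 1.34 (adjusted p = 0.0178). With centring 1 of the 45 was higher (2.22%) and 10 lower (22.2%), against 9.54% and 23.6% of all genes. The counts also moved when tumour 1 or either epidermis array was left out. Whether these genes differ from the 43 members was not tested.

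Of 25 measured mitotic genes 6 were lower (24.0%) and 0 higher by limma after adjustment, against 12.5% and 16.6% of all genes. Their median was -0.37, against 0.09 for all genes. Ube2c, a ubiquitin-conjugating enzyme of mitotic exit, had 95.5 and 161 in tumour and 364.6 and 653 in epidermis (-1.84, adjusted p = 0.0190). The mitotic kinase genes Plk1 and Ttk differed by -1.81 (adjusted p = 0.0277) and -1.61 (adjusted p = 0.0219), and Prc1, a spindle midzone protein gene, by -1.17 (adjusted p = 0.0392). Tumour 2 was above tumour 1 for 24 of the 25, against 48.2% of all genes, by a median of 0.83 against -0.03. The proliferation marker Mki67 had 2958.3 and 9486.4 in tumour and 1899.6 and 2790.1 in epidermis (1.20, adjusted p = 0.132). Before adjustment, limma put 2 mitotic genes higher at a p under 0.05, and no share of all genes is given at that threshold. These were Cenpf, a centromere protein gene (1.12, adjusted p = 0.0963), and the kinetochore gene Ndc80 (1.88, adjusted p = 0.0949). Beside the 0 called, 3 mitotic genes (12.0%) were called higher with the replicate block, against 15.9% of all genes. The count of higher mitotic genes also moved when tumour 1 was left out. The count of lower mitotic genes moved when either epidermis array was left out.

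PDKC1 cells held most members at a higher level than either tissue. All 3 PDKC1 arrays lay above all 4 tissue arrays for 37 of 43 members, against 17.9% of all genes, and the count was 34 with quantile normalization and 36 with centring. At 0 h, PDKC1 exceeded the tumour mean by 0.58 to 3.63 log2 units over those 37 genes. Mcm3 had 5094.1 in untreated PDKC1 cells, against 415.2 and 380.1 in tumour and 730.2 and 1148 in epidermis. Pcna had 21135 there, against 3358.3 and 2023.7 in tumour and 7169.9 and 10294.5 in epidermis. No member had all PDKC1 arrays below all tissue arrays, against 22.8% of all genes. The 6 members that did not exceed all tissue arrays were Gins1, Cdc7, Tyms, Ccne1, E2f2 and E2f8. The PDKC1 RNA was labelled from 2 µg and the tissue RNA from 100 ng, so culture, labelling and cell type cannot be told apart and no test was run. Probe sets of 1 gene again differed: Rrm1 had 5708 in PDKC1 against 67.2 and 70.4 in tumour on 1 of its plain sets, and 4117.6 against 965 and 1015.3 on its brightest set.

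The PDKC1 time course followed the carcinoma line over 10 h of cyclopamine. The series holds no array without cyclopamine at 6 h or 10 h, so drug and elapsed time cannot be told apart. With 1 array at each time the differences have no replicate check. Shares of all genes are over the 11566 bright genes, whose highest PDKC1 value was above the median probe set of that array, and all 43 members were among them. The Hedgehog target gene Gli1 had 841.9 at 0 h, 193.2 at 6 h and 189.6 at 10 h, the receptor gene Ptch1 had 2184.8, 686.2 and 549.5, and Hhip, a decoy receptor gene, had 239.6, 179.2 and 72.1. The replication genes changed little beside these. Only E2f2 among 43 members moved by 1.5-fold or more, and the same way, at 6 h and at 10 h, against 2.83% of bright genes that were lower and 2.55% that were higher at both. At 6 h alone, 0 members were 1.5-fold higher and 1 lower, against 4.36% and 6.10% of bright genes. At 10 h 1 was higher and 1 lower, against 6.27% and 6.48%. E2f2 had 139.7 at 0 h, 71.9 at 6 h and 45.3 at 10 h, a fold of 0.565 at 6 h and 0.394 at 10 h on the log2(intensity + 16) scale. Its second probe set had 83.9, 65.5 and 111.6, which does not follow the first, and with a pseudocount of 64 or the mean of probe sets 0 members passed the fold at both times.

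**Figure D4:**
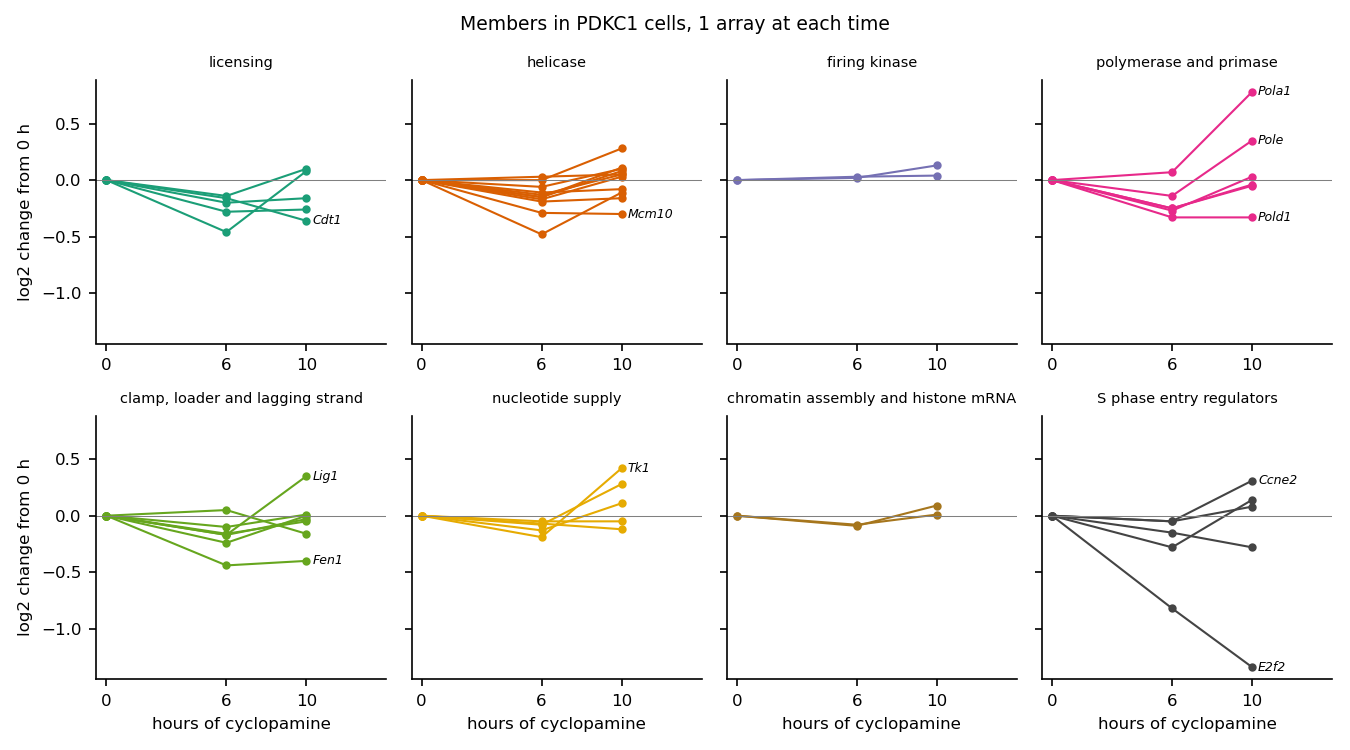
Log2 change from 0 h of each member in PDKC1 cells at 6 h and 10 h of cyclopamine, 1 array per time, 1 panel per role. Members at least 0.3 from 0 h at 10 h are named. Most lines lie slightly below 0 at 6 h and above their 6 h value at 10 h, E2f2 reaches -1.34 and Pola1 reaches 0.78.

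Most members were slightly lower at 6 h than at 0 h and above their 6 h value at 10 h. At 6 h, 37 of 43 were below 0 h by any amount, against 51.4% of bright genes, with a median of -0.15 against -0.01. At 10 h, 18 of 43 were below 0 h, against 49.2%, with a median of 0.03 against 0.01. Lower at 6 h and above the 6 h value at 10 h were 31 of 43, against 31.3% of bright genes, while 7 were below their 6 h value at 10 h, against 47.4%. These counts by sign were chosen after the values were seen. With centring 33 of 43 members were below 0 h at 6 h, against 38.6% of bright genes, and 28 were above their 6 h value at 10 h, against 40.4%. Apart from E2f2, the fold at 6 h ranged from 0.717 for Gins1 to 1.05 for Pola1. Gins1, of the GINS complex, had 1033 at 0 h, 736.5 at 6 h and 957 at 10 h, and Orc1 had 283, 201.1 and 299.6. Both were lowest at 6 h, although a difference of this size cannot be set against a spread between cultures here.

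The size of the change at 10 h differed among members, whose values follow in the order 0 h, 6 h and 10 h. Pola1, the catalytic subunit of polymerase alpha, had 800.5 at 0 h, 838.3 at 6 h and 1388.7 at 10 h, a fold of 1.72, and was the only member at least 1.5-fold higher than 0 h at 10 h. Tk1 had 1727.8, 1507.8 and 2318.4, and it and Pola1 were the 2 members at least 1.5-fold above their 6 h value at 10 h, against 5.94% of bright genes, and 0 were that far below it, against 4.44%. Lig1 had 1434, 1273.3 and 1835.7, Pole had 862.7, 780.7 and 1105.3, and Rrm1 had 4117.6, 3901.8 and 4998.7. These 3 also had their highest value at 10 h. Ccne2, the second E cyclin gene, had 1027.6, 995.3 and 1282.1, and Mcm4 had 5019.9, 5023.4 and 6080.2. Fen1 stayed low on its brightest set, at 8084.4, 5942.6 and 6124.5, but its a_at set rose again at 10 h (4462.4, 3353.7 and 4099.2). Pold1 stayed low at 1560.4, 1235.5 and 1240.7, and its other set had 1349.5, 1066.4 and 1095.9. Cdt1 had 6896.8, 6164.9 and 5362.9, Cdc6 had 1727.2, 1421.4 and 1435.2, and Mcm10 had 563.5, 456.6 and 454. Cdt1 was lower at each later time, while Cdc6 and Mcm10 held their 6 h level. Cdc7 had 706.9, 724.6 and 726.3, Dbf4 had 1073.6, 1086.2 and 1180.3, Chaf1b had 1591.6, 1505.6 and 1604.1, and Slbp had 3598.7, 3390.5 and 3829.7.

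The mitotic and other replication genes were counted by the same rules. Of 25 mitotic genes 21 were below 0 h at 6 h, against 51.4% of bright genes, and 25 were above their 6 h value at 10 h, against 52.6%. Their medians relative to 0 h were -0.13 at 6 h and 0.19 at 10 h, against -0.01 and 0.01 for bright genes. At least 1.5-fold above 0 h at 10 h were 3 of them (12.0%), against 6.27% of bright genes. At least 1.5-fold below at 6 h were 2 (8.0%), against 6.10%. Of the 45 other replication genes 34 were below 0 h at 6 h and 22 at 10 h, against 51.4% and 49.2% of bright genes. Below their 6 h value at 10 h were 15, against 47.4%. At 1.5-fold from 0 h there were 0 at either time. Of bright genes, 4.36% were that far higher and 6.10% lower at 6 h, and 6.27% and 6.48% at 10 h. Below 0 h at 6 h and above the 6 h value at 10 h were 21 of the 25 mitotic genes (84.0%) and 24 of the 45 other replication genes (53.3%), against 31.3% of bright genes. Whether the lists differ from one another was not tested.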

How the data were processed

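Total RNA of basal cell carcinoma (2 arrays), newborn epidermis (2 arrays) and PDKC1 cells (3 arrays) was hybridised to Affymetrix mouse arrays of 45101 probe sets, per the labels. The values are linear intensity values in the authors' deposited series table; the sources used here do not give the software or scaling, and the trimmed mean of every array was 500.0. Control probe sets (64), those annotated to several genes (932) and those with no gene name (9160) were left out, which left 34945 for 18193 genes. Intensities were taken as log2(intensity + 16), so fold changes of low genes are understated. The probe set with the highest mean over the arrays stood for each gene.

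Tumour was compared with epidermis in limma 3.58.1 (R 4.3.3), fitted on the 4 tissue arrays only, with a variance trend and Benjamini-Hochberg adjustment over all genes. The PDKC1 arrays took no part in the fit. A call is an adjusted p under 0.05. The number of arrays limits the precision. PDKC1 has 1 array per time and no test: folds of 1.5 were counted among the 11566 genes whose brightest PDKC1 array exceeded that array's median. The fit was tested on simulated data. Named genes were, per role, the 3 largest tumour differences and the 2 largest changes at 10 h, with called genes. The members, lists and rules were chosen with earlier results of these data known. The labels give no pairing of tumour with epidermis arrays. The deviations of same-numbered arrays had a correlation of -0.001 over genes, which with 2 arrays per tissue cannot exclude a pairing.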

Additional observations from a re-analysis of the deposited data

How the results depend on the processing

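Without 1 tissue array in turn, the members called ranged from 0 to 7 higher and from 0 to 10 lower, the median difference from -0.52 to 0.00, the other replication genes from 1 to 14 higher and 0 to 4 lower, and the mitotic genes from 0 to 5 higher and 0 to 8 lower. Without either epidermis array no member was called by limma after adjustment. Leaving out an array leaves a lone sample assumed to vary like the others. With each array centred on its median, 0 members were higher and 17 lower with a median of -0.80. With that centring 1 other replication gene was higher and 10 lower, against 9.54% and 23.6% of all genes. With the mean of probe sets 0 members were higher and 8 lower, against 14.7% and 10.4% of all genes. Of the 11 calls 6 were lost, and Fen1, Mcm2 and Rrm2 were added. With all probe sets tested, 6 member probe sets were higher and 18 lower, against 16.6% and 10.7% of all probe sets. Of the other replication list 15 were higher and 5 lower, and of the mitotic list 2 were higher. With no variance trend 5 members were lower, 3 other replication genes higher and 1 lower, and 1 mitotic gene lower. Of all genes 13.2% were higher and 8.65% lower in that fit. With the replicate block 3 members were higher and 7 lower, and 3 mitotic genes higher against 0 without the block. Of all genes 15.9% were higher and 12.2% lower with the block. Members lower at both PDKC1 times numbered 0 with a pseudocount of 64, the mean of probe sets or a 2-fold rule, and 2 of 82 bright probe sets. Of 82 bright member probe sets, 67 were lower at 6 h and 64 higher at 10 h than at 6 h, and of all 93, 69 were above all tissue arrays in PDKC1. The cause of these shifts was not tested. Of the single-gene values under an alternative, 453 kept their side of the threshold, 24 passed it and 38 no longer passed it. None of the 11 called members changed sign. Changes of sign in members not called were not counted. With the mean of probe sets, for example, Cdc45 went from -0.60 to 0.78 and Mcm7 from 0.68 to -0.27.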
